A study of Solea senegalensis with 8 samples.

Results

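The gene taldo codes for transaldolase, an enzyme of the pentose phosphate pathway, and was followed here through the 1 probe that carries its transcript number, Contig52404, among 43441 distinct non-control probes of a Senegalese sole oligonucleotide array. The link between probe and gene rests on that number alone, which stands beside the name transaldolase in the primer list of the study. The probe was printed on 1 of 45218 spots. Pools of about 100 whole larvae of Solea senegalensis, taken 3 days post hatch, were measured, with 4 pools incubated from the gastrula stage at 10 ppt and 4 at 36 ppt. Spawning, incubation temperature and age were common to both groups, and the larvae came from a captive broodstock with no genetic modification named in the labels. Cy3-labelled RNA of 1 pool was hybridized per array on 2 slides, each holding 2 arrays of each salinity, and the brightness of a spot was read as a measure of its transcript. With 2 tanks per salinity by the labels or 3 by the methods, some of the 4 pools of a salinity shared a tank, and the p-values below measure the spread between arrays, which may be technical in part. Whole larvae hold many tissues, and fewer cells that express a gene cannot be told apart from less RNA per cell.

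Transaldolase belongs to the non-oxidative branch of the pentose phosphate pathway, in which it passes a carbon unit between sugar phosphates and thereby links ribose phosphate to the intermediates of glycolysis. The oxidative branch of the same pathway, opened by glucose-6-phosphate dehydrogenase, makes NADPH, which cells use to build lipids and to keep glutathione reduced, and ribose phosphate is the sugar of nucleotides. RefSeq lists 1 gene named taldo1 for Senegalese sole. The probe names of the arrays are contig numbers that no table used here pairs with gene symbols, so the other enzymes of the pathway, such as transketolase and phosphogluconate dehydrogenase, were not analysed here.

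The probe sequence was not used here, but the primers with which the study measured taldo by quantitative PCR identify the transcript, and they are shown because they are the only bases printed for it. Both run 5′ to 3′, all in lower case since no part is singled out, and hold 56 and 55.6% G or C over 25 and 27 bases.
taldo forward: atgctcagcgtgaagaacggccagt
taldo reverse: gctttggaccttctagcagagcggaga

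Since 2 deposits of these arrays disagree about the salinities, every direction below has 2 readings. The authors deposited scanner files and a table of processed log2 values, and each column of that table followed the scanner file with the same replicate number but the other salinity (Pearson's r of at least 0.998 across 42769 spots), against r of at most 0.664 with the file of its own label. The taldo spot showed the same exchange. Its scanner values, scaled and centred on the median of the 8 arrays, lay within 0.015 log2 units of the table's values for the other salinity on every array. Which deposit has the right labels could not be told from the files. The study itself gives taldo as higher at 10 ppt, by array and by quantitative PCR, which is the direction of the value table and opposite to that of the scanner labels used below. Arrays are therefore named by their scanner files ("labelled 10 ppt"), and the reading by the labels of the value table is the opposite.

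On the intensities as Feature Extraction gave them, taldo was dimmer on all 4 arrays labelled 10 ppt than on any array labelled 36 ppt. Its processed intensity, background-subtracted and detrended by that software, was 9247, 7864, 7328 and 7796 on replicates 1 to 4 labelled 10 ppt. On replicates 1 to 4 labelled 36 ppt it was 25021, 18993, 22431 and 21715. The lowest array labelled 36 ppt was thus 2.05-fold brighter than the highest labelled 10 ppt, and within a salinity the arrays stayed close to each other. The error that Feature Extraction attached to the spot was between 10.0 and 13.2% of its signal. On the log2 scale the 4 unscaled intensities at labelled 10 ppt had a mean of 12.97 (SD 0.14) and the 4 at labelled 36 ppt a mean of 14.42 (SD 0.16). This 2.73-fold difference (exact permutation test over arrays, two-sided, p = 0.0286, the smallest that 4 against 4 arrays allow) was lower at labelled 10 ppt and, under the labels of the value table, higher at 10 ppt. Most probes behaved alike without scaling. Of 4458 detected probes (defined below), 68.3% also lay wholly lower at labelled 10 ppt, and the median detected probe differed by -0.80 log2 units.

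**Figure D1:**
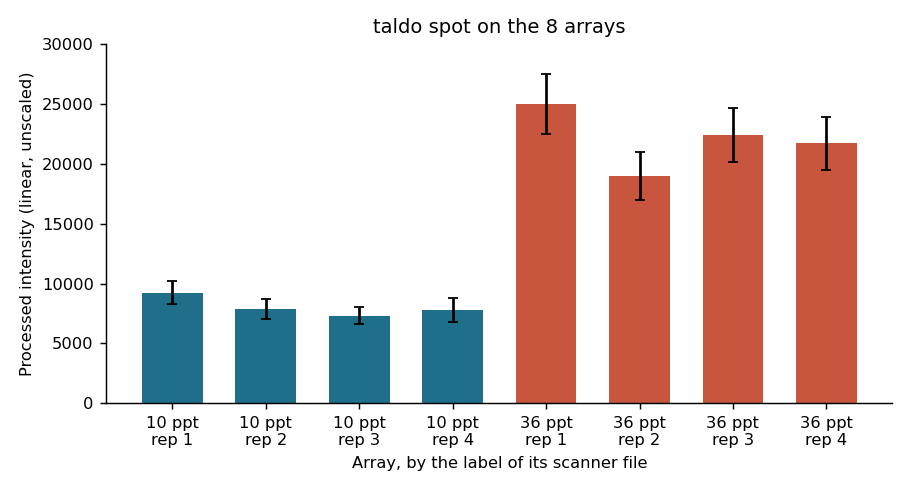
Processed intensity of the taldo spot (y axis, linear scale, not scaled between arrays) on each of the 8 arrays (x axis), with bars for single arrays and error bars for the error given by Feature Extraction. The 4 arrays labelled 10 ppt lie between 7328 and 9247 and the 4 labelled 36 ppt between 18993 and 25021, with no overlap. Without scaling, 68.3% of 4458 detected probes likewise lay wholly lower at labelled 10 ppt.

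By the flags of Feature Extraction, the spot itself was measurable on every array. It was called well above background on 8 of 8 arrays, was saturated on none and carried no outlier flag. Its median pixel intensity was 71.8 to 242 times the local background at labelled 10 ppt and 474 to 566 times at labelled 36 ppt. The negative control spots were a stricter yardstick, since their median intensity was 140.5 to 2511 on replicates 2 and 4 of both salinities, whose grid did not pass in Feature Extraction, and 52.0 to 84.5 on the others. On replicate 4 labelled 10 ppt the taldo spot had only 2.34 times the median intensity of those controls, against 46.7 to 154 times on the other 3 arrays of that label. At labelled 36 ppt it was 12.6 and 14.3 times on replicates 2 and 4 and 234 and 247 times on replicates 1 and 3. With the negative control median of each array taken off the median pixel intensity, which was done only once the values were known, the values were 7935, 6417, 5493 and 3373 at labelled 10 ppt and 19730, 15700, 15402 and 15174 at labelled 36 ppt. The salinities still did not overlap, with no scaling between arrays, and the difference was 2.96-fold (exact permutation test, two-sided, p = 0.0286). How many other probes stayed apart after this subtraction was not counted. On the unscaled processed intensities, 68.3% of 4458 detected probes lay wholly lower at labelled 10 ppt.

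The spot lies in row 532 of 532, the last row of the printed grid, at column 18. Feature Extraction raised its signal there by a factor of 1.05 to 1.34 when it removed the spatial trend, with factors of 1.08 to 1.32 on the arrays labelled 10 ppt and 1.05 to 1.34 on those labelled 36 ppt. Before that step the intensity differed 2.72-fold between the salinities, nearly as after it. Of the 62 other non-control spots of the last row, 3 could be tested between salinities. None of these 3 probes passed in the limma fit described below, and their median log2 difference was 0.13. Over the last 10 rows, 11 of 58 tested probes (19.0%) were called lower at labelled 10 ppt, against 914 of 4594 (19.9%) over all rows, with taldo left out of each count.

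The arrays differed in total brightness, so a comparison of transcript levels needs a scaling between them. The main scaling took the 75th percentile of all non-control spots of an array off its log2 intensities, after which the taldo probe had normalized log2 signals of 4.28, 3.67, 3.74 and 2.99 at labelled 10 ppt and 4.77, 4.30, 4.97 and 4.84 at labelled 36 ppt. The salinities then lay next to each other without overlap, 0.017 log2 units apart, with replicate 1 the highest of the first and replicate 2 the lowest of the second. The means were 3.67 ± 0.53 (SD, n = 4 arrays) and 4.72 ± 0.29 (SD, n = 4), a log2 difference of -1.05 or 2.07-fold. The spread at labelled 10 ppt, 0.14 before the scaling, was 0.53 after it. It was also wide without scaling, at 0.52, once the negative control median had been taken off the median pixel intensity. The 75th percentile that was taken off ranged from 475.7 to 982.4 in intensity over these 4 arrays, and its highest value belonged to replicate 4, the array on which the negative controls were brightest. On replicates 2 and 4 of both salinities, only 4401 to 8025 of 43801 non-control spots were well above background. The other arrays had 11996 to 16417. Too few spots passed on replicates 2 and 4 to reach down to the 75th percentile. There it was thus set at the level of spots not well above background, which limits this scaling. Other scalings are given below.

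In a limma fit over 4595 detected probes, those well above background on all 4 arrays of either salinity, the taldo difference of -1.05 had a standard error of 0.32, a 95% interval of -1.68 to -0.41 and a Benjamini-Hochberg adjusted p of 0.00984. Its direction held in 4 of 4 pairs of the same replicate number, a count not made for other probes. On the value table the same fit gave 1.05 with the sign turned (adjusted p from limma of 0.0102). The call is to be read against a background in which 20.6% of the tested probes passed (947 of 4595), 19.9% in the direction of taldo by the scanner labels and 19.9% in its direction by the labels of the table. With the replicate number as a block, 25.5% passed in the direction of taldo by the scanner labels and taldo among them (adjusted p from limma of 0.00263). The standard error came from a variance common to all probes, and the study chose taldo for quantitative PCR from these same arrays, so that its p is not independent evidence. Absence of overlap was also common, with 15% of 4458 probes without a missing spot lying wholly lower at labelled 10 ppt.

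Among the detected probes taldo stood in the lower part of the distribution. The median probe differed by -0.40, and 569 of 4595 probes (12.4%) had a difference at least as low as that of taldo. That share depends on the filter, under which a probe may count as detected through its brighter salinity alone. It was 6.65% (217 of 3263) over probes well above background on all 8 arrays and 3.35% (1456 of 43441) with no filter. The taldo probe thus lay 0.64 log2 units below the median probe.

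**Figure D2:**
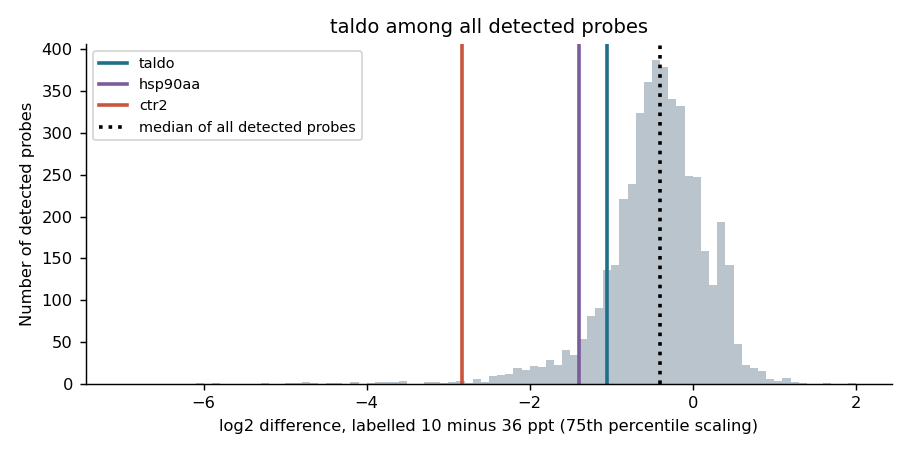
Number of detected probes (y axis) by log2 difference, labelled 10 minus 36 ppt, after scaling by the 75th percentile (x axis), with vertical lines for taldo, hsp90aa, ctr2 and the median probe. The line of taldo at -1.05 lies between the median at -0.40 and the lines of hsp90aa at -1.40 and ctr2 at -2.83.

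The call was lost with normexp background correction, where the difference was 1.99-fold, the salinities overlapped and replicate 2 went the other way (adjusted p from limma of 0.999), without a filter on dim probes, and with an unequal-variance test per probe in place of the common variance. Single arrays and slides also moved it. It was lost without replicate 4 labelled 10 ppt, where the difference was -0.82 (adjusted p from limma of 0.0573), and without replicate 1, 3 or 4 labelled 36 ppt, where it was -1.03, -0.96 and -1.01 (adjusted p from limma of 0.0501, 0.0671 and 0.0602). Within slide 1 the normalized signals differed 1.47-fold and within slide 2 they differed 2.90-fold, with no overlap on either slide. Each slide sets 2 arrays against 2, and how many other probes did not overlap there was not counted. The fits within 1 slide, added once the values were known, gave adjusted p from limma of 0.934 and 0.0148. They called 97 of 5818 probes (1.67%) lower at labelled 10 ppt on slide 1 and 1587 of 7863 (20.2%) on slide 2. The difference between the slides was -0.98 log2 units and did not pass as an interaction term (adjusted p from limma of 0.473). This term called 0 of 4595 probes, so its failure to pass does not show that the slides agreed. Within the arrays with a passed grid the difference was 1.81-fold (adjusted p from limma of 0.137) and within those without one 2.36-fold (0.0292, limma, likewise added). The share of probes called lower at labelled 10 ppt was 7.37% of 14251 with a passed grid and 19.3% of 4672 without one.

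By the scanner labels, the mean taldo difference was lower at 10 ppt under each scaling run, while its size depended on the scaling. It was 1.50-fold after quantile normalization, 1.54-fold with each array set to the median of its detected probes, 2.95-fold relative to all spike-in spots and 3.48-fold relative to the 43 bright, unsaturated spike-in spots, a scaling added once the values were known. Over these settings the median detected probe moved as well, by -0.04 with quantile normalization, 0.03 with the median of the detected probes, -0.92 with all spike-in spots, -1.15 with the bright ones and -0.80 without scaling. Relative to that median, taldo lay at -0.55 with quantile normalization and at -0.64 to -0.65 with the others, which move all probes of an array alike and so leave this distance nearly fixed by construction. Each of these fits called taldo lower at labelled 10 ppt (adjusted p from limma of 0.00131, 5.6e-04, 0.00332, 5.14e-09 and 6.89e-06 in the order quantile, median, all spike-ins, bright spike-ins and no scaling). They also called 22.4% of probes lower with quantile normalization, 24.6% with the median of the detected probes, 41% with all spike-in spots, 86.1% with the bright ones and 77.4% without scaling, so that a call under either of the last 2 distinguishes little. All probes wholly lower at labelled 10 ppt made up 68.3% of unscaled probes and 76.1% with the bright spike-in spots.
The spread between arrays of a salinity depended on the scaling too. With the median of the detected probes, the taldo signal was 1.03, 1.15, 0.88 and 0.83 at labelled 10 ppt and 1.58, 1.56, 1.65 and 1.58 at labelled 36 ppt. The SD was then 0.15 and 0.04 (n = 4 arrays each), against 0.53 and 0.29 with the 75th percentile, and the gap between the salinities was 0.41 log2 units. With this scaling 1056 of 4458 probes (23.7%) lay wholly lower at labelled 10 ppt and 1128 wholly higher. A gap at least as wide as that of taldo, in its direction, was found for 8.21%. With all spike-in spots the salinities overlapped, by 0.10 log2 units (exact permutation test, two-sided, p = 0.0571).

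**Figure D3:**
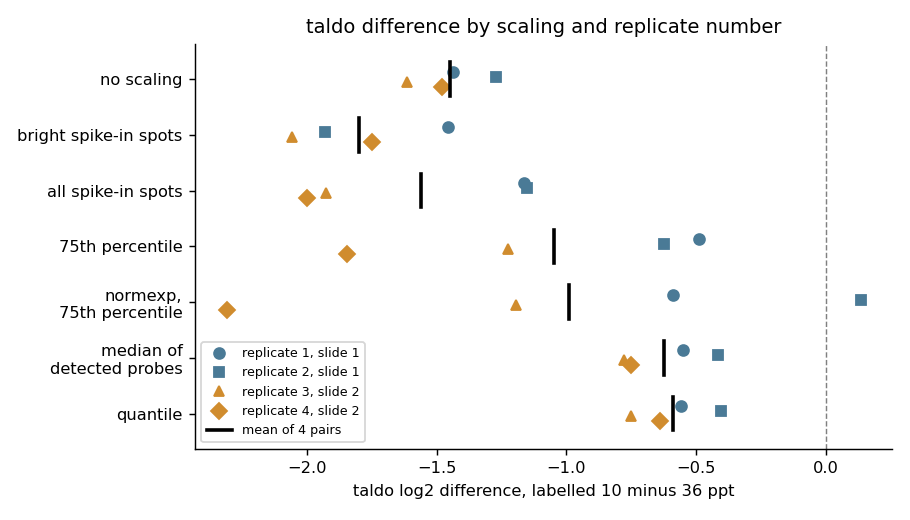
Log2 difference of taldo, labelled 10 minus 36 ppt (x axis), between arrays of the same replicate number (points, coloured by slide) under 7 settings of scaling and background correction (y axis), with a black bar for the mean of the 4 pairs. All points lie below 0 except replicate 2 under normexp at 0.14, and the pairs are closest together without scaling, with quantile normalization and with the median of the detected probes.

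Between arrays that share a replicate number, and with it a slide and a grid that passed or did not, taldo was lower at labelled 10 ppt in 4 of 4 pairs. The pairs were not matched in the brightness of their negative controls. On replicate 2 the negative control median was 140.5 at labelled 10 ppt and 1349 at labelled 36 ppt. The local background of the taldo spot was alike on that pair, at 35 and 36, but was 82 and 31 on replicate 4. Scaled by the 75th percentile, the pairs differed 1.40-, 1.54-, 2.34- and 3.60-fold for replicates 1 to 4, so that both pairs of slide 2 exceeded both of slide 1. Without scaling they differed 2.71-, 2.42-, 3.06- and 2.79-fold. The order of the slides was the same there, while the pairs lay much closer together. With 4 pairs an exact sign-flip permutation test cannot go below p = 0.125, which is the value reached with each of these scalings. How many other probes were lower in 4 of 4 pairs was not counted. A probe that lies wholly lower at labelled 10 ppt is lower in each pair by construction. Such probes made up 15% of 4458 with the 75th percentile and 68.3% without scaling.

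The rank of the spot within its own array needs no scaling. Among 3165 probes with no missing spot and a signal well above background on 8 of 8 arrays, 35.7, 33.3, 39.7 and 38.6% were brighter than taldo on replicates 1 to 4 labelled 10 ppt, against 24.2, 24.8, 23.6 and 24.6% on replicates 1 to 4 labelled 36 ppt. The arrays labelled 36 ppt differed by about 1 percentage point among themselves and none reached the range of the others. How many other probes were separated in rank was not counted. Separation was common after quantile normalization, where 1105 of 4458 probes (24.8%) lay wholly lower at labelled 10 ppt and 831 wholly higher. A rank compares the brightness of spots and not the amounts of different transcripts, since probes differ in how strongly they bind.

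**Figure D4:**
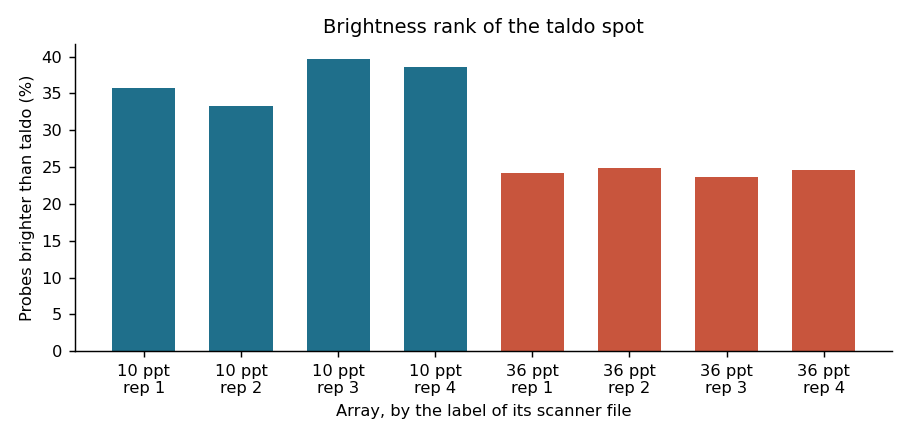
Percent of 3165 probes that were brighter than the taldo spot (y axis) on each of the 8 arrays (x axis), where a lower bar means a brighter rank of taldo. The 4 bars labelled 36 ppt lie between 23.6 and 24.8% and the 4 labelled 10 ppt between 33.3 and 39.7%.

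The log2 ratio of taldo to other probes of the same array was compared next, which again cancels any scaling by a constant. Against the mean of 8 of the 40 probes printed on 10 spots each, putative housekeeping genes by the study's design, those 8 being well above background and unsaturated throughout, taldo had a log2 ratio of -0.24, -0.18, -0.33 and -0.35 at labelled 10 ppt and 0.23, 0.26, 0.34 and 0.29 at labelled 36 ppt. The ratio was negative on every array of the first label and positive on every array of the second. Its means were -0.28 ± 0.08 (SD, n = 4 arrays) and 0.28 ± 0.05 (SD, n = 4), a 1.47-fold change of the ratio (exact permutation test, two-sided, p = 0.0286, adjusted p = 0.0286 over 3 comparisons). How many other probes separated in this ratio was not counted. Separation was common with the median of the detected probes as the scaling, where 23.7% of 4458 probes lay wholly lower at labelled 10 ppt. The ten-spot probes themselves differed by a median of -0.54, from -1.07 to 0.17, and 1 of the 8 was at least as low as taldo. Between the 10 spots of such a probe, the median SD of log2 intensity was 0.05 to 0.13 on the 8 arrays. The highest SD of a probe was 0.34, on replicate 4 labelled 10 ppt. These values give the size of the spot-to-spot error that a single spot such as that of taldo may carry.

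Chymotrypsinogen 2 (ctr2, Contig53434), the precursor of a pancreatic protease, differed more than taldo. Its normalized log2 signal had a mean of 2.15 (SD 0.71, n = 4 arrays) at labelled 10 ppt, against 4.99 (SD 0.29, n = 4) at labelled 36 ppt. The log2 ratio of taldo to ctr2 was 1.60, 2.19, 0.89 and 1.38 at labelled 10 ppt and -0.05, -0.36, -0.27 and -0.40 at labelled 36 ppt. The ratio was thus 3.45-fold higher at labelled 10 ppt, with no overlap (exact permutation test, two-sided, p = 0.0286, adjusted p = 0.0286 over 3 comparisons). The cytosolic chaperone hsp90aa (Contig39196) was closer to taldo, with ratios of 2.07, 2.33, 1.91 and 2.32 at labelled 10 ppt and 1.80, 1.83, 1.88 and 1.71 at labelled 36 ppt. These did not overlap either, by a narrow margin between 1.91 and 1.88, and the ratio changed 1.28-fold (exact permutation test, two-sided, p = 0.0286, adjusted p = 0.0286). The ratio of 2.32 on replicate 4 labelled 10 ppt rests on a dim hsp90aa spot, not well above background, while the other 3 arrays of that label measured it. Without that array the log2 change was 0.30 in place of 0.35 (two-sided p = 0.0571 by exact permutation, which 3 against 4 arrays cannot go below). With the 4 arrays of a passed grid alone it was 0.15. Each of the 3 ratios changed the same way in 4 of 4 pairs, for which a sign-flip permutation test cannot go below p = 0.125. The labels of the value table turn all 3 directions, and the study chose ctr2 and hsp90aa on these arrays as it did taldo. The p-values of 0.0286 for these ratios are therefore not independent evidence. Both ctr2 (-2.83) and hsp90aa (-1.40) also fell further at labelled 10 ppt than the median detected probe (-0.40). A probe that differed like the median would thus rise in its ratio to either, so separation there does not single out taldo. Each is the smallest that 4 against 4 arrays allow, and the adjustment over 3 equal values leaves it unchanged. How many other probes would separate in their ratio to the ten-spot probes, ctr2 or hsp90aa, or keep their direction in 4 of 4 pairs, was not counted.

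**Figure D5:**
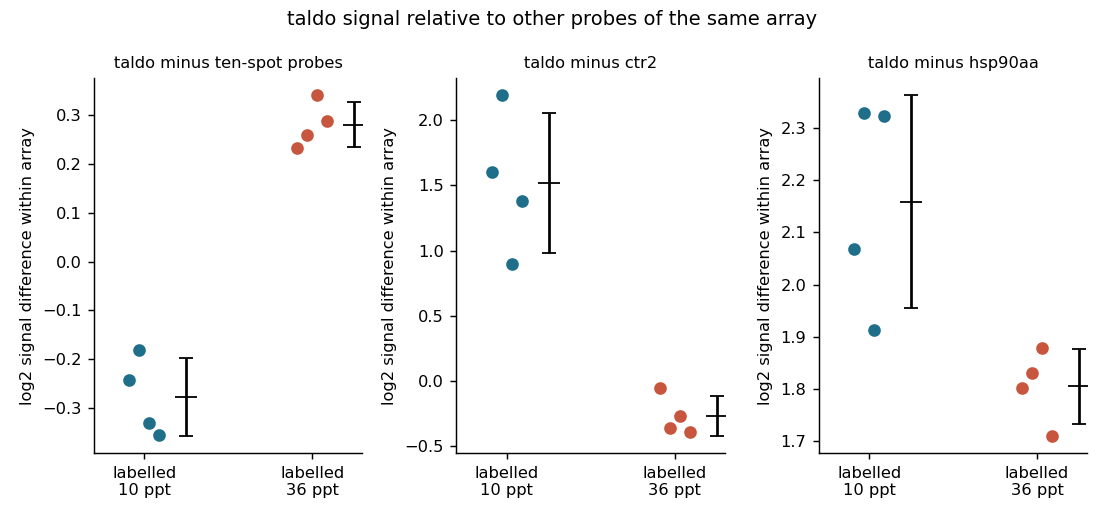
Log2 signal of taldo minus that of the ten-spot probes (left), ctr2 (middle) and hsp90aa (right) on the same array (y axes, with different ranges), for the arrays labelled 10 and 36 ppt (x axis); points are arrays, and black bars give the mean and SD of 4 arrays. The 2 labels do not overlap in any panel, and the difference is 0.56 toward labelled 36 ppt on the left and 1.79 and 0.35 toward labelled 10 ppt in the middle and on the right, where the hsp90aa spot of replicate 4 labelled 10 ppt was not well above background.

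Probes whose normalized signal followed that of taldo most closely over the 8 arrays were named by Pearson's r, among 2840 other probes that were well above background, unsaturated and without an outlier flag on all arrays. The closest was Contig8573 (r = 0.999), whose normalized log2 signal averaged 2.84 (SD 0.48) at labelled 10 ppt and 3.81 (SD 0.29) at labelled 36 ppt. Contig30740, Contig11204, Contig46026 and Contig8620 followed with r between 0.996 and 0.998. Their log2 differences between the salinities lay between -1.15 and -0.93, around the -1.05 of taldo. The files give no gene for these probes. High values were common with this scaling. The median r over the 2840 probes was 0.831, or 0.929 without scaling, and 35.6% of them had r over 0.9. With the median of the detected probes as the scaling, the median r was -0.12 and 9.51% of probes exceeded 0.9, and the 5 probes named, which had been picked for their r over these same arrays, had r between 0.978 and 0.994. In the deviations from the mean of each salinity, Contig2592, Contig8573 and Contig5317 were closest (r of 0.997 to 0.998), where the median over all probes was 0.924. Contig2592 and Contig5317 had log2 differences of -0.64 and -0.69, which did not pass (adjusted p from limma of 0.147 and 0.117).

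In the values the authors processed themselves, taldo had log2 values of 0.49, 0.0029, 0.70 and 0.56 on replicates 1 to 4 that the table labels 10 ppt and -0.0029, -0.62, -0.54 and -1.30 on those it labels 36 ppt. Each value is relative to the median of the 8 arrays. By these labels taldo was higher at 10 ppt on every array than on any at 36 ppt, but only just. The lowest value at 10 ppt was 0.0029 and the highest at 36 ppt was -0.0029. How many other probes separated in these values was not counted. On the scanner files with the 75th percentile, 15% of 4458 probes lay wholly lower at labelled 10 ppt.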

How the data were processed

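The authors hybridized Cy3-labelled RNA to one-colour Agilent arrays and deposited the intensity of every spot from Agilent Feature Extraction (9.1 per the labels, 10.7.3.1 per the file headers), background-subtracted and detrended with no scaling between arrays. They also deposited a table of log2 values, which followed log2 intensity minus the 75th percentile of each array, centred on the median of each spot over the 8 arrays. Its column medians ranged from -1.04 to 1.14, and 2 of its spots that the scanner files lack were not used here.

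Spots with an outlier flag were set aside, the 75th percentile of 43801 non-control spots was taken off the log2 intensity of each array, and repeated spots of 1 probe were averaged. Salinities were compared in R (4.3.3) with limma (3.58.1), with salinity as the only term and an adjusted p under 0.05 as the threshold. The fit was also run on simulated data with noise drawn independently for each probe and array. Deviations of the measured probes were not independent (median r of 0.924 with those of taldo). The simulation thus checks the working of the fit and not the calls made here. Exact tests used SciPy (1.17.1). Normexp (offset 50) used the median spot intensity, since the files hold no mean. The number of arrays limits the precision, and each slide had 1 scan date of its own.

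The member, the comparison probes and the tests were chosen with earlier results of these data known. Named probes were taldo, ctr2, hsp90aa, the 5 probes with the highest r with taldo over the arrays and the 3 with the highest r of deviations. After the mean of each salinity had been removed, arrays that share a replicate number correlated (r of 0.359, 0.378, 0.488 and 0.432 across 4458 probes). The highest r with an array of another number and the other salinity was 0.278, 0.278, 0.348 and 0.348 for the same replicates. The numbers were taken to pair the arrays on that margin. Arrays of the same number share a slide and whether their grid passed, not a tank or a brightness of the negative controls.

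The alternatives were other scalings, background corrections, filters and variance models, outlier spots kept, the value table, slide and replicate number as blocks, array weights, single arrays left out and subsets of arrays. The quantitative PCR of the study was not analysed here.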

Additional observations from a re-analysis of the deposited data

Results flagged for a closer look

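Of 30 groups of 4 arrays examined for the taldo spot, 1 held an array far from the others, where chance would flag about 1 in 20 groups. The local background of the spot was 82 on replicate 4 labelled 10 ppt, and its other 3 values at that label were 28 to 35. The same array had the brightest negative controls (2511) and the lowest normalized taldo signal of all 8 (2.99). Its unscaled taldo intensity of 7796 lay within the range of the other arrays labelled 10 ppt. With the negative control median taken off the median pixel intensity, its value was 3373, below the 5493 to 7935 of those arrays. Without replicate 4 labelled 10 ppt the log2 difference of taldo was -0.82 in place of -1.05, and the part of this background in the result was not tested.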

How the results depend on the processing

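The taldo difference of -1.05 kept its direction by the scanner labels under every alternative except the value table, whose labels turn it to 1.05. It was no longer called with normexp (-0.99, adjusted p from limma of 0.999), without a filter on dim probes (-1.05), with the unequal-variance test per probe (-1.05, adjusted p of 0.186), on the arrays with a passed grid (-0.86) and on slide 1 alone (-0.56). Without single arrays it lay between -1.25 and -0.82. The call was also lost without replicate 4 labelled 10 ppt and without replicate 1, 3 or 4 labelled 36 ppt (adjusted p from limma of 0.0501 to 0.0671). A block for the replicate number left it at -1.05 (adjusted p from limma of 0.00263). The block changed no call of taldo in the limma fits, and the sign-flip tests over pairs, which cannot pass with 4 pairs, left the changes against the ten-spot probes (-0.56), ctr2 (1.79) and hsp90aa (0.35) at p = 0.125 by permutation.

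Against the ten-spot probes, ctr2 and hsp90aa the changes were -0.57, 1.41 and 0.15 on the arrays with a passed grid, a design of 2 against 2 that cannot pass, and 0.56, -1.79 and -0.35 by the labels of the value table. Normexp left that against hsp90aa at 0.20 (exact permutation test, adjusted p = 0.114). Without single arrays they lay between -0.59 and -0.53, 1.56 and 1.99, and 0.30 and 0.44, where 3 against 4 arrays cannot pass either.

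The fit with the 75th percentile called 947 of 4595 tested probes (20.6%), and a different number tested is given where it applied. Without a filter 18 of 43441 were called (0.04%), and with the filter on all 8 arrays 454 of 3263 (13.9%). With the unequal-variance test 15 of 4458 were called (0.34%). The count was 1844 with quantile normalization, 2329 with the median of the detected probes and 1888 with all spike-in spots. It was 3571 without scaling, 35 with normexp and 3572 with array weights. It was 1933 and 2644 with the replicate block on quantile and median scaling. Of the settings added once the values were known, bright spike-in spots gave 3959 (4224 with the replicate block) and no scaling with the block 3918. Slides 1 and 2 alone, likewise added, gave 128 of 5818 (2.2%) and 1600 of 7863 (20.3%). Without single arrays the count lay between 544 and 1945. It was 544 of 4613 (11.8%) without 36 ppt replicate 4 and 586 of 4813 (12.2%) without 10 ppt replicate 2. Without 36 ppt replicate 2 it was 1925 of 7806 (24.7%). With 4595 tested, it was 553 and 596 without 36 ppt replicates 3 and 1 and 1945 without 10 ppt replicate 1. Of the calls, 96.6% were lower at labelled 10 ppt with the 75th percentile, 55.9% with quantile normalization and 48.6% with the median of the detected probes.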
